A study of Mus musculus with 15 samples.

Results

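Genes that act on germ cell RNA after transcription, 9 in all, were followed in 15 mouse testis libraries: Dazl, Boll, Ybx2, Ybx3, Cpeb1, Ddx25, Papolb, Celf1 and Eif4g3. They were chosen by name, as the 9 rows of the expression table whose Entrez ID maps to these symbols, out of 23510 gene IDs in all. All 9 averaged at least 1 FPKM over the 15 libraries, as did 14514 genes, and these were the genes tested. FPKM counts the fragments that mapped to a gene relative to its length and to all mapped fragments of the library.

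All mice were ICR, an outbred stock, and each of the 5 groups held 3 testis libraries. The study injected the testes of males aged 5 weeks with lentivirus and collected them 10 days later. M1, M3 and M5 received a mix of 3 short hairpin RNAs against the muscarinic acetylcholine receptor of that name, and MNC received the vector control of the receptor lentivirus. Con carries the genotype label control, and its labels say nothing of an injection. The virus was given to the whole testis and was not restricted to a cell type. The labels do not say that the libraries of a group came from separate animals, so the p-values measure only the spread between these libraries, which may be technical.

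A male germ cell stops transcription while it reshapes its nucleus, and many of its proteins are made from messages that were transcribed days earlier and held back. Proteins that bind those messages package them, lengthen or shorten their poly(A) tails, carry them out of the nucleus and bring them to the ribosome. Mice that lack such a factor are often sterile, with germ cells that stop in meiosis or as spermatids. In a whole testis, fewer cells of a type and less RNA per cell cannot be told apart, and this holds for every level below.

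The receptor transcripts were too low to check the group labels. Chrm5 ranged from 0.22 to 0.37 FPKM in M5 and from 0.23 to 0.43 in MNC (two-sided exact permutation test, p = 0.5, n = 3 each). Chrm1 in M1 against MNC gave an exact permutation p of 0.9 and Chrm3 in M3 against MNC one of 0.3 (n = 3 each), where the smallest p that 3 against 3 libraries allow is 0.1, and no receptor passed 0.43 FPKM in any library. One library stood apart from its group: on the axis from the MNC mean (0) to the M5 mean (1) over the 820 genes that differed between them, M3 replicate 3 lay at 0.829, whereas the other libraries of Con, M1 and M3 lay between 0.114 and 0.220. Markers of all germ cell stages and of Sertoli and Leydig cells were detected in every group. Epididymis markers summed to 13.4 to 32.3 FPKM over 6 genes in Con and 1.15 to 19.7 in M3, beside 0.63 or less elsewhere, and 1 of the 6, Crisp1, averaged over 1 FPKM (4.86 over the 15 libraries). Read totals were not used here, so the depth behind each value is unknown.

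Dazl encodes an RNA-binding protein that germ cells need from their earliest stages and that recruits stored messages to ribosomes. Dazl lies on the minus strand at chr17:50279393-50293620 of GRCm38.p6, the RefSeq release of the mm10 build that the submitters' processing notes list. The 300 bases around its start site, from 250 before to 50 after, are shown because Dazl was the gene of the 9 that passed the test in 3 comparisons. The sequence is RefSeq's, 5′ to 3′ on the strand of the gene, at chr17:50293571-50293870, and the capitals mark the letters ATTGG, which read CCAAT on the other strand. These letters are the core of the Y box, after which the Y-box proteins Ybx2 and Ybx3 are named.

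Dazl: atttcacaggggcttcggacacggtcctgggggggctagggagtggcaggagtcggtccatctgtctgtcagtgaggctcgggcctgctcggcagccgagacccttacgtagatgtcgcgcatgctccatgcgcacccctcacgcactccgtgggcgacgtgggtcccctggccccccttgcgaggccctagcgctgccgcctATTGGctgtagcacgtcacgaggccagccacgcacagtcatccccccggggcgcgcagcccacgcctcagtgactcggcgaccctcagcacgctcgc

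CCAAT or ATTGG was found in the windows of 5 of the 9 genes, among them Ybx2 itself, which held it 2 times. The other windows are shown around these letters only, for comparison with Dazl. They lie at chr1:55362747-55362811 (minus strand, Boll), chr11:69935729-69935846 (plus strand, Ybx2), chr9:35558445-35558509 (minus strand, Ddx25) and chr5:142530115-142530179 (minus strand, Papolb) of GRCm38.p6.

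Boll: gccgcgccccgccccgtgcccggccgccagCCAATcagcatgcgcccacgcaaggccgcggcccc
Ybx2: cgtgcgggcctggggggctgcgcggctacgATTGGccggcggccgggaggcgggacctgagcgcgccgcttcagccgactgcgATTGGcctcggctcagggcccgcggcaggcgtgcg
Ddx25: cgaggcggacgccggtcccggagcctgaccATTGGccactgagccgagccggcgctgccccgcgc
Papolb: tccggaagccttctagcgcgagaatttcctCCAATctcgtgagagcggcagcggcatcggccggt

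The letters began 47 bases before the start site in Dazl (offset -47), at -53 in one of the start sites of Boll, at -73 in Papolb, at -9 in Ddx25 and at -140 and -87 in Ybx2. Over all 32851 promoter windows of this length, 37.4% held CCAAT or ATTGG, and 5 of the 12 windows of the 9 genes did. The half-site TGACG or CGTCA of the cAMP response element was found in Dazl and Cpeb1, and in 20.8% of all windows. The E-box CACGTG was found in Boll, Cpeb1 and Ddx25, and in 7.15% of all windows. The motifs were chosen after the sequences were seen. A match is a string of letters and was not tested as a binding site.

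The levels of the 9 genes spanned a wide range. Averaged over the 15 libraries, Ybx2 stood at 1266 FPKM and Ybx3 at 918. These encode Y-box proteins, which coat messages in spermatocytes and spermatids and hold them untranslated. Ddx25, a helicase that carries messages out of the nucleus of round spermatids, followed at 311, and Papolb, the poly(A) polymerase that extends tails in the cytoplasm of spermatids, at 293. Eif4g3, a scaffold of the cap-binding complex that spermatocytes need to leave meiotic prophase, was at 127, Boll, the meiotic relative of Dazl, at 73.5 and Dazl at 55.3. Cpeb1 (4.35), which binds the cytoplasmic polyadenylation element of stored messages, and Celf1 (3.75), which binds GU-rich messages and promotes loss of their tails, were lowest. FPKM is scaled by length, so these levels may be compared roughly between genes. They were not corrected for GC content, which runs from 36.2% in Dazl to 58.6% in Ybx2. Within single libraries this order held in 15 of 15 for 5 of the 8 neighbouring pairs. Ddx25 was above Papolb and Boll above Dazl in 14 libraries each, and Cpeb1 above Celf1 in 12. For these 3 pairs, and for Ybx2 and Ybx3, the ranges of the 2 genes over the 15 libraries overlapped.

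Summed over the 9 genes, the M5 libraries held 2800.09, 2799.51 and 2514 FPKM, all below the 12 others, which lay between 2948 and 3322. Most of this sum is Ybx2 and Ybx3.

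**Figure D1:**
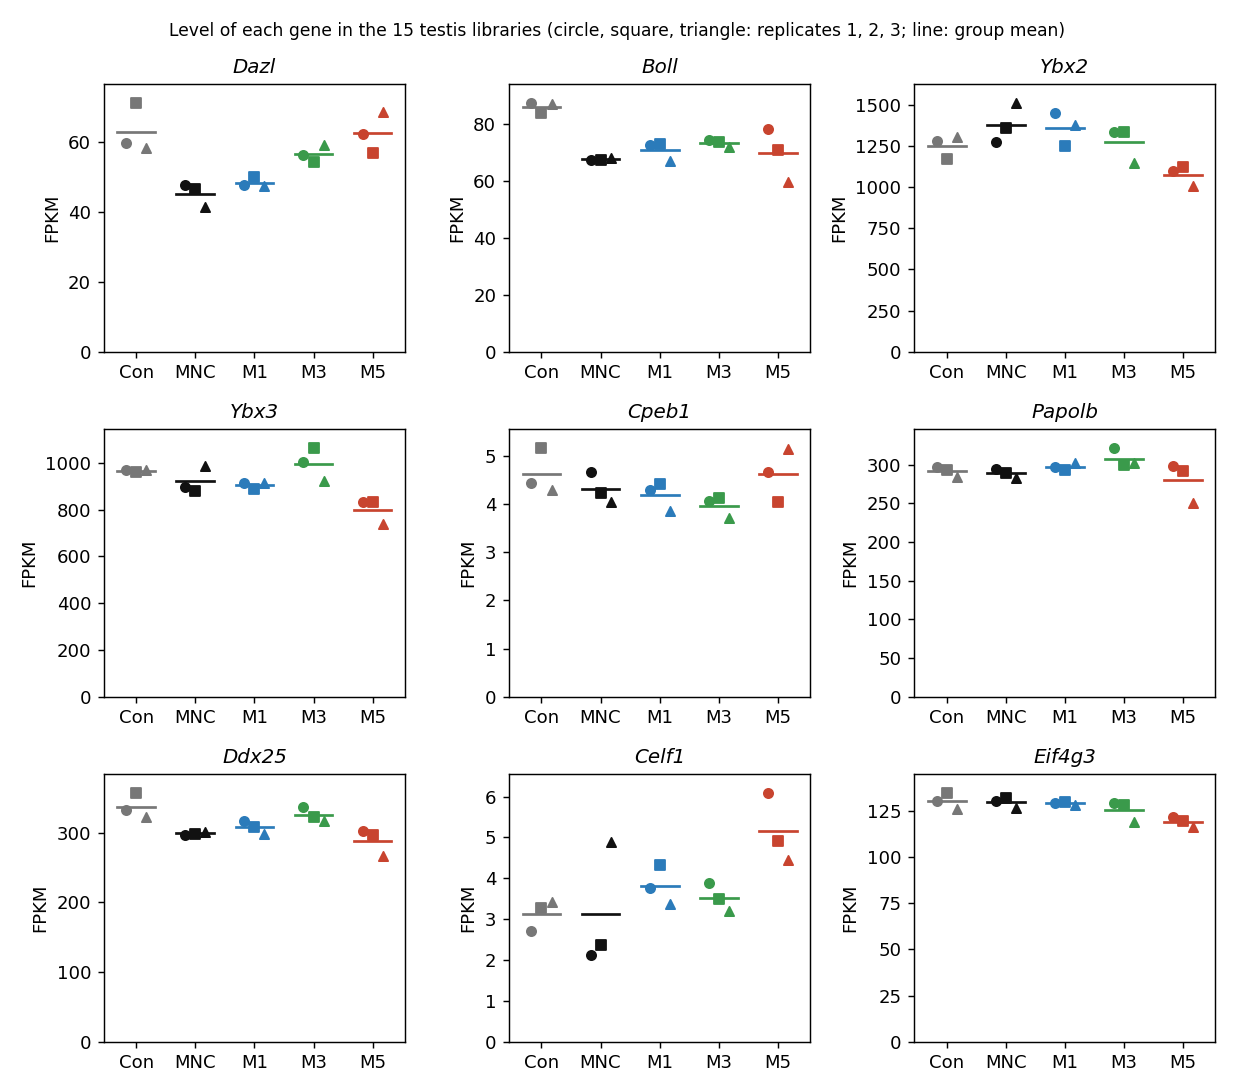
Level of the 9 genes in FPKM (vertical axes, from 0) by group (horizontal axes), 1 point per library, with circle, square and triangle for replicates 1, 2 and 3 and a line for the group mean. Dazl is low in MNC and M1 and high in Con and M5, while the 3 M5 libraries are below all 12 others for Ybx2 and Ybx3.

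M5 was set against MNC to ask what differs when the M5 receptor is targeted, and Dazl rose. Its level was 62.5, 57.0 and 68.6 FPKM in the 3 M5 libraries and 47.7, 46.8 and 41.5 in MNC, so the groups did not overlap. The mean of 62.7 ± 5.80 (SD, n = 3) in M5 was 1.38 times that of 45.3 ± 3.38 (SD, n = 3) in MNC, a difference of 0.46 in log2(FPKM + 1) (SE 0.0898, 95% interval 0.24 to 0.67, limma adjusted p = 0.0411). Dazl was the only 1 of the 9 genes called at an adjusted p under 0.05, where 5.65% of all genes tested were called. Without any single library the difference lay between 0.39 and 0.52, while the limma adjusted p, now with 2 libraries in a group, lay between 0.0567 and 0.131. Removing the trend of each library with GC content, which is 36.2% for Dazl, took its difference to 0.19 (limma adjusted p = 0.388).

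The level in MNC, not that in M5, was the one that departed from Con. Dazl stood at 59.8, 71.2 and 58.4 FPKM in Con, and with Con as the control in place of MNC the difference of M5 was -0.01 (limma adjusted p = 0.969). In order of their means, Con (63.1) and M5 (62.7) were followed by M3 (56.7), M1 (48.5) and MNC (45.3). The ranges of Con and M5 overlapped, and so did those of M5 and M3 and of M1 and MNC, while every M3 library (54.4 to 59.4) was above every M1 library (47.6 to 50.1).

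Ybx2 and Ybx3 were at their lowest in M5, without passing the test. Ybx2, required in mice for stable messages in spermatids, held 1095, 1124 and 1003 FPKM in M5 against 1270, 1358 and 1507 in MNC. The groups did not overlap, with a difference of -0.36 (SE 0.0876, 95% interval -0.57 to -0.15, limma adjusted p = 0.0649), 22.1% below MNC on the means (a percent difference of -22.1). The GC content of Ybx2 is 58.6%, the highest of the 9, and without the GC trend its difference was -0.20 (limma adjusted p = 0.304). Ybx3 was at 831, 831 and 739 FPKM in M5 against 898, 879 and 986 in MNC, a difference of -0.20 (limma adjusted p = 0.174). For both genes the highest M5 library was below the lowest of the 12 other libraries: 1124.22 against 1148.58 FPKM for Ybx2 and 831.22 against 879.23 for Ybx3. Of all genes tested, 3.29% had that order.

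The translation scaffold Eif4g3 varied least. It held 122, 119 and 116 FPKM in M5 and 130, 132 and 127 in MNC, which did not overlap, yet the difference was -0.12 (95% interval -0.24 to -0.01, limma adjusted p = 0.183). Over all 15 libraries its highest value was 1.16 times its lowest, against 1.72 times for Dazl and 2.87 times for Celf1.

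Celf1 had the largest difference and the widest spread. It reached 6.08, 4.92 and 4.46 FPKM in M5 beside 2.12, 2.37 and 4.88 in MNC, so MNC replicate 3 lay within the M5 range. The difference of 0.63 (SE 0.257, limma adjusted p = 0.191) was 0.92 without that library (limma adjusted p = 0.0873). Against Con, which held 2.70 to 3.43 FPKM, the 3 M5 libraries were all higher, with a difference of 0.57 (limma adjusted p = 0.0285).

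The other 4 genes overlapped between M5 and MNC. Their differences were 0.03 for Boll, -0.05 for Ddx25, -0.05 for Papolb and 0.08 for Cpeb1, with adjusted p of 0.652 or more in limma. The 95% intervals limit what could have been missed: -0.20 to 0.27 for Boll, -0.20 to 0.10 for Ddx25, -0.23 to 0.14 for Papolb and -0.20 to 0.35 for Cpeb1. With each library centred on its median, Boll turned to -0.003. In M5, Boll ranged from 59.8 to 78.4 FPKM, with a coefficient of variation of 13.4% beside 0.640% in MNC.

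In all, 4 of the 9 genes did not overlap between M5 and MNC (Dazl higher, and Ybx2, Ybx3 and Eif4g3 lower), beside 32.1% of all genes tested. The median difference over the 9 was -0.05, beside 0.03 over all genes tested. At an unadjusted p under 0.05 there were 5 of the 9, beside 24.9% of all genes.

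**Figure D2:**
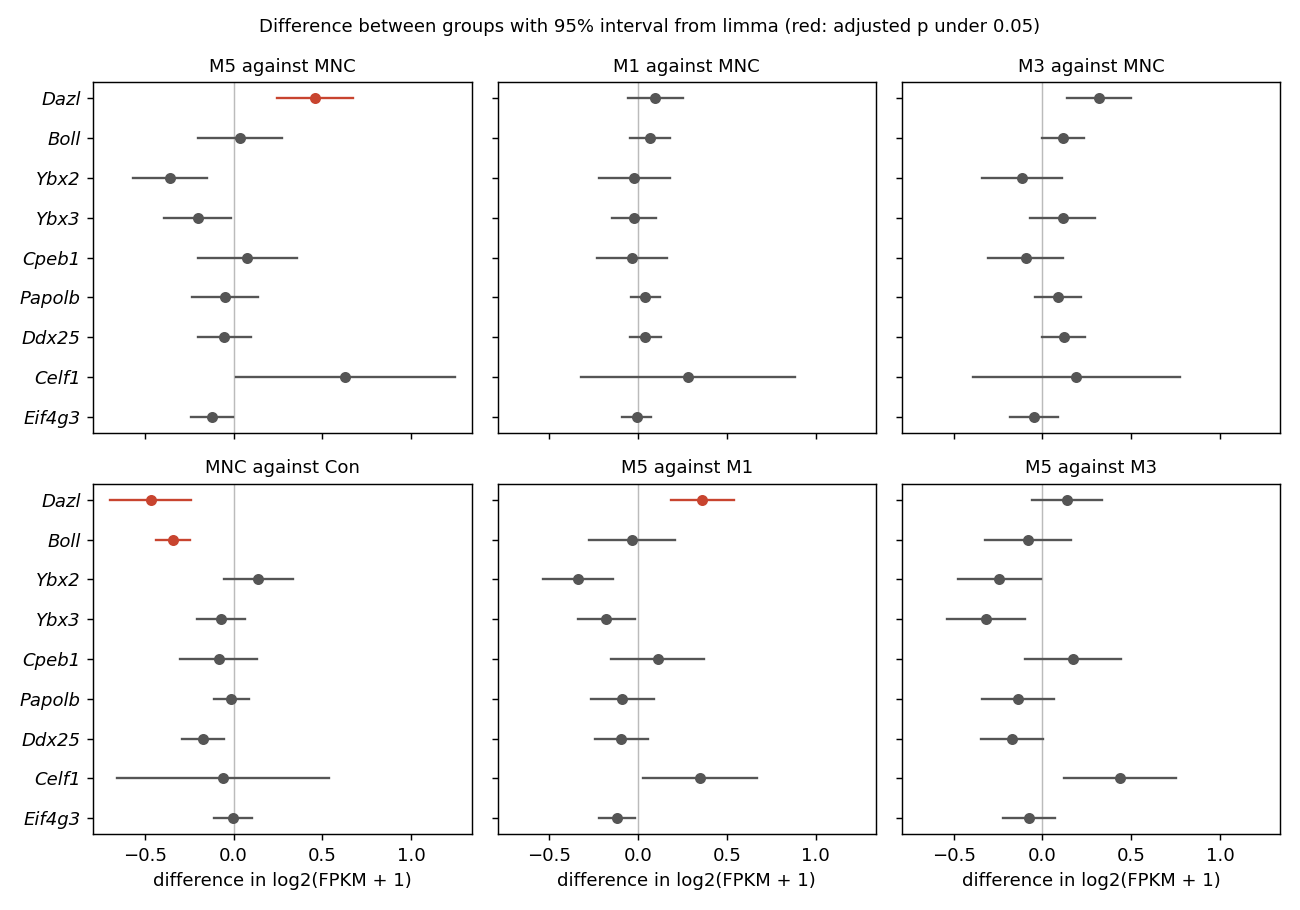
Difference of each gene in log2(FPKM + 1) (horizontal axis) in the 6 comparisons, with 95% intervals from limma on 3 libraries a group, positive where the first group named is higher. Red marks an adjusted p under 0.05: Dazl in M5 against MNC (0.46), in M5 against M1 (0.36) and in MNC against Con (-0.47), and Boll in MNC against Con (-0.34).

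M5 replicate 3 held the lowest value of the 15 libraries for 6 of the 9 genes: Ybx2, Ybx3, Ddx25, Papolb, Eif4g3 and Boll. It also held the highest summed FPKM of the 15 for markers of Sertoli cells (683 over 8 genes, beside 370 to 573 in the others), Leydig cells (3137 over 6 genes, beside 654 to 1993) and macrophages (42.4 over 5 genes, beside 12.5 to 31.6). Their part in the lower germ cell levels of that library was not tested. Without it, the difference of M5 from MNC was -0.31 for Ybx2, -0.15 for Ybx3, -0.11 for Eif4g3, 0.14 for Boll and 0.39 for Dazl, and the direction of these 5 was kept. The small differences of Ddx25 (-0.05) and Papolb (-0.05) turned to 0.002 and 0.03. Summed red blood cell markers were 148 to 491 FPKM in M5 over 5 genes and 21.8 to 35.3 in MNC.

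Markers of germ cell stages also moved between groups. The summed level of 8 spermatocyte markers was 542 to 621 FPKM in M5, 500 to 518 in MNC and 622 to 649 in Con, the same order of groups as for Dazl, with all 8 markers above a mean of 1 FPKM. That of 7 round spermatid markers was 1021 to 1058 in M5, 1122 to 1176 in MNC and 930 to 961 in Con. Elongating spermatid markers, 8 in all, summed to 22852.5 to 31930.7 in M5, 23090.5 to 29374.2 in MNC and 11105.1 to 21687.1 in Con. Their ranges in M5 and MNC thus overlapped. For spermatogonia, 7 markers summed to 48.6 to 64.6 in M5, 57.3 to 63.1 in MNC and 63.7 to 69.7 in Con. The part of these shifts in the differences of the 9 genes was not tested.

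**Figure D3:**
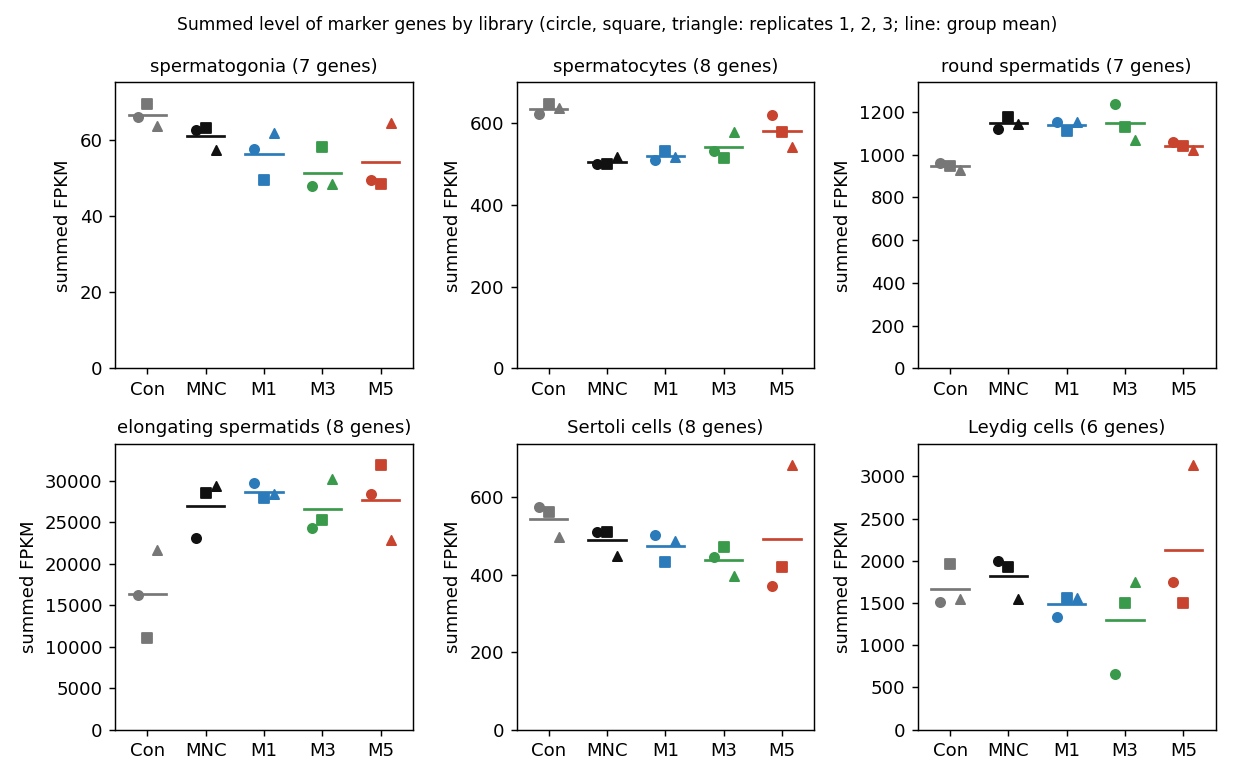
Summed FPKM of marker genes of 6 testis cell types (vertical axes, from 0) by group, 1 point per library, with circle, square and triangle for replicates 1, 2 and 3 and a line for the group mean. Spermatocyte markers are lowest in MNC (500 to 518) and highest in Con (622 to 649), and M5 replicate 3 is highest for Sertoli (683) and Leydig (3137) markers.

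The comparison of MNC with Con asked what goes with the injected vector, and its most stable call was Boll, called in 12 of 14 alternatives. Boll fell from 87.2, 83.8 and 87.1 FPKM in Con to 67.3, 67.5 and 68.1 in MNC. Both groups were tight (SD 1.90 and 0.433 FPKM, n = 3 each) and did not overlap, and the difference was -0.34 (SE 0.0393, 95% interval -0.44 to -0.25, limma adjusted p = 0.0158). Dazl fell as well, with a difference of -0.47 (SE 0.0940) and a limma adjusted p of 0.0273. Ddx25 was at 333, 356 and 323 FPKM in Con and at 297, 298 and 301 in MNC, a difference of -0.17 (limma adjusted p = 0.0535). The call of Boll was lost without Con replicate 1 (adjusted p = 0.0866) and that of Dazl without Con replicate 1 or 2 or MNC replicate 2 or 3 (adjusted p up to 0.0956).

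These 2 calls stand beside 20.4% of all genes tested, and the 3 genes that did not overlap (all lower in MNC) beside 46.5%. The median of the 9 was -0.07, beside -0.10 over all genes. Ybx2 (0.14), Ybx3 (-0.07), Cpeb1 (-0.08), Papolb (-0.01), Celf1 (-0.06) and Eif4g3 (-0.01) had an adjusted p of 0.231 or more. Papolb, active in spermatids, was at 297, 294 and 284 FPKM in Con and 294, 289 and 283 in MNC, with a 95% interval of -0.11 to 0.09. Con also held the epididymis markers given above, and its part in these differences was not tested.

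M1 against MNC gave no call among the 9 genes and none among all genes (0% in limma, with 862 genes at an unadjusted p under 0.05, none of them among the 9). No gene of the 9 was free of overlap, beside 12% of all genes tested. Dazl was at 47.9, 50.1 and 47.6 FPKM in M1, and its difference from MNC was 0.10 (95% interval -0.06 to 0.25). The 95% interval was -0.09 to 0.08 for Eif4g3, -0.04 to 0.12 for Papolb and -0.05 to 0.13 for Ddx25, and wider for Ybx3 (-0.15 to 0.10) and Ybx2 (-0.22 to 0.18). Against Con, M1 was lower in Dazl (-0.37, limma adjusted p = 0.0192) and Boll (-0.28, adjusted p = 0.0121), 2 calls beside 34.2% of all genes tested.

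In M3 against MNC, no gene of the 9 passed the test, where 1 gene in all did (0.00689%). Dazl was at 56.5, 54.4 and 59.4 FPKM, above every MNC library, with a difference of 0.32 (SE 0.0746, limma adjusted p = 0.518). Boll (72.0 to 74.3 FPKM), Ddx25 (316 to 336) and Papolb (300.2 to 321.1) were also above every MNC library. That made 4 genes of the 9 that did not overlap, beside 17.1% of all genes tested, with a median difference of 0.11 beside -0.04. Without M3 replicate 3, the library near M5 on the axis above, Dazl was at 0.29, Boll at 0.13, Ddx25 at 0.14 and Papolb at 0.10, in the same direction. Ybx2 in that library was at 1149 FPKM, beside 1336 and 1335 in the other M3 libraries, and Eif4g3 at 119 beside 130 and 128. Against Con, M3 was lower in Boll (-0.23, limma adjusted p = 0.0319), 1 call beside 22.1% of all genes. M5 against Con gave the 2 calls of Ybx3 (-0.27, limma adjusted p = 0.0411) and Celf1 beside 21.7%.

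The comparisons with MNC share its 3 libraries, so M5 was also compared directly with M1 and M3. Dazl was higher in M5 than in M1 by 0.36 (SE 0.0740, 95% interval 0.18 to 0.54, limma adjusted p = 0.0413), and every M5 library was above every M1 library. This was 1 call beside 6.75% of all genes tested, and it was lost in each leave-one-out fit except that without M5 replicate 3 (adjusted p = 0.0351). Ybx2 was at 1447, 1247 and 1378 FPKM in M1, above the 3 M5 values, with a difference of -0.34 (limma adjusted p = 0.0616). Ybx3 (-0.18), Eif4g3 (-0.12) and Celf1 (0.35) did not overlap between M5 and M1 either, at limma adjusted p of 0.1504 to 0.167. That was 5 of the 9 genes beside 33.7% of all.

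Against M3, no gene of the 9 passed the test (0.0138% of all genes did). Ybx3 was at 1005, 1062 and 924 FPKM in M3 and had a difference of -0.32 (95% interval -0.54 to -0.10, limma adjusted p = 0.338). Ybx2 (-0.24), Ddx25 (-0.17), Papolb (-0.14) and Celf1 (0.44) did not overlap either, which made 5 of the 9 beside 22.9% of all genes. Without M3 replicate 3, the difference was -0.37 for Ybx3 and -0.32 for Ybx2 (limma adjusted p = 0.120 and 0.145). Dazl overlapped between M5 and M3, with a difference of 0.14 (95% interval -0.06 to 0.34).

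The 9 genes hold 2 pairs of paralogs, and the ratio within a library is free of its total. Dazl and Boll are both relatives of the human DAZ genes. The ratio of Dazl to Boll was 0.798, 0.804 and 1.15 in M5, 0.709, 0.693 and 0.609 in MNC and 0.658 to 0.709 in M1. It was higher in every M5 library than in every MNC or M1 library (log2 differences of 0.43 and 0.40, exact permutation p = 0.1 each, the smallest possible with n = 3 a group). In M3 it was 0.737 to 0.825, above MNC (0.21, exact permutation p = 0.1) and overlapping M5 (exact permutation p = 0.3). Con, at 0.671 to 0.849, overlapped MNC (exact permutation p = 0.6). M5 replicate 3 was the only library in which Dazl was above Boll.

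Ybx2 and Ybx3 share the cold-shock domain that binds RNA. The ratio of Ybx2 to Ybx3 fell into 2 levels: 1.41 to 1.54 in MNC and 1.41 to 1.58 in M1, and 1.22 to 1.34 in Con, 1.24 to 1.33 in M3 and 1.32 to 1.36 in M5. MNC was above Con (0.21), M5 below MNC (-0.15) and M3 below MNC (-0.23) without overlap (exact permutation p = 0.1 for each, n = 3 a group). M1 did not separate from MNC (0.003, exact permutation p = 1), nor M5 from M3 (0.07, p = 0.2). Over the 6 comparisons of each ratio, 0.1 is the smallest p the design allows, so none can pass 0.05. The ratios were not corrected for GC content, which is 58.6% for Ybx2 and 49.8% for Ybx3. With the GC trend removed, the 2 genes differed alike between M5 and MNC (-0.20 for Ybx2 and -0.21 for Ybx3). They stayed apart in M3 against MNC (-0.02 and 0.11) and in MNC against Con (0.10 and -0.07).

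**Figure D4:**
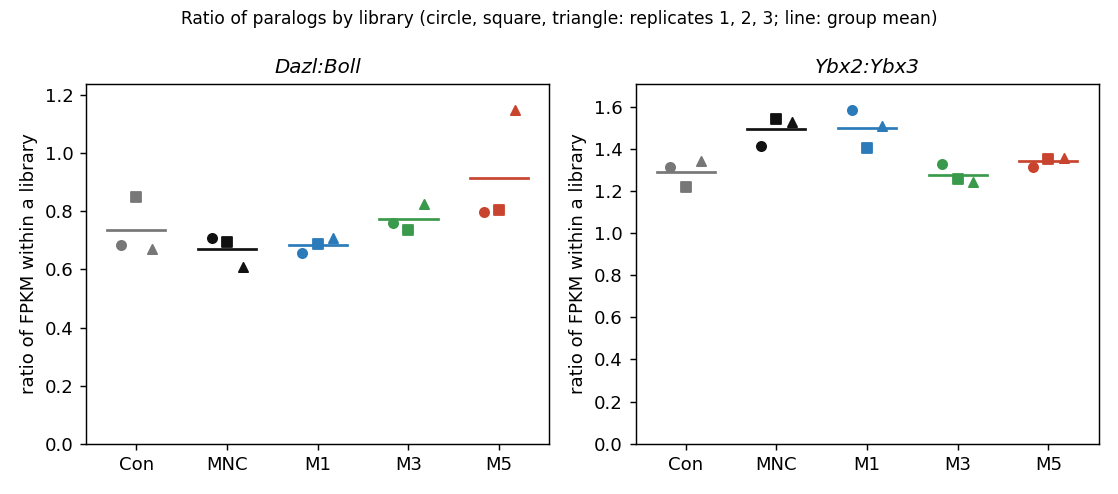
Ratio of FPKM within a library for Dazl to Boll (left) and Ybx2 to Ybx3 (right) by group (horizontal axes), 1 point per library, with a line for the group mean. Dazl to Boll has its highest mean in M5 (libraries at 0.798 to 1.15), and Ybx2 to Ybx3 is higher in MNC and M1 (1.41 to 1.58) than in Con, M3 and M5 (1.22 to 1.36).

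Over the 15 libraries, which share depth and cell makeup within a library, the likeness of the 9 genes to each other is given as a description. The highest Pearson r of log2(FPKM + 1) was 0.82 between Boll and Ddx25 (Spearman's rho 0.86), followed by Ybx3 and Ddx25 (r = 0.76, rho 0.75) and Ybx2 and Ybx3 (r = 0.69, rho 0.56). The lowest was -0.80 between Dazl and Ybx2 (rho -0.78), the genes of the 9 with the lowest and the highest GC content. Dazl and Boll, although paralogs, were at 0.36.

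**Figure D5:**
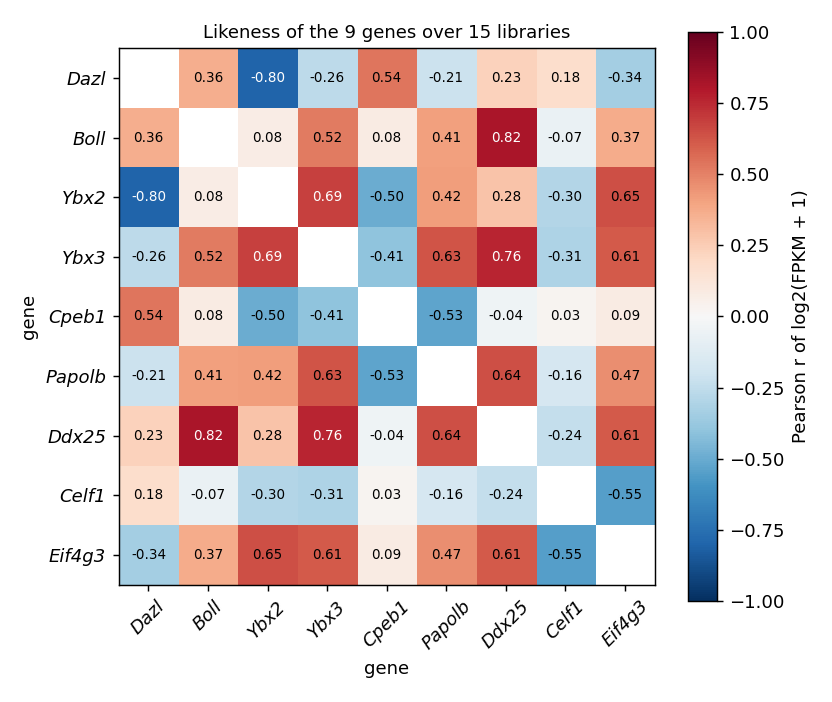
Pearson r of log2(FPKM + 1) over the 15 libraries between each pair of the 9 genes (both axes), from -1 (blue) to 1 (red). Boll and Ddx25 are most alike (0.82), and Dazl and Ybx2 most opposed (-0.80).

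Among the other genes tested, up to 3 most like each of the 9 were named by the same r. For Dazl these were Mad2l1 (0.94), a spindle checkpoint protein, Ppil2 (0.93) and Dld (0.93), and for Boll, Trmt10a (0.95), Kctd9 (0.95) and 2310057M21Rik (0.94). For Ybx2 they were Tesk1 (0.97), a kinase of the testis, Comp (0.96) and Inava (0.95). Ybx3 had Spout1 (0.93), Ybx1 (0.92) and Ndufaf3 (0.90), of which Ybx1 is a further Y-box protein, at 907 FPKM over the 15 libraries. It was Glt8d1 (0.94) and Med28 (0.92) for Ddx25, Arid3b (0.94), Dcp1b (0.94), a decapping factor, and Lrrc41 (0.93) for Eif4g3, and Txndc15 (0.92), Eogt (0.90) and Jkamp (0.90) for Cpeb1. Papolb (Fbxw10, Tcte2 and Nup50, all at 0.87) and Celf1 (Epsti1 at 0.80, Mtnr1a at 0.80 and Dlg2 at 0.79) had no closer neighbour. Spearman's rho with Papolb was lower than r, at 0.57 for Fbxw10, 0.65 for Tcte2 and 0.78 for Nup50.

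The paralogs of the 9 genes were counted next, 15 in all, all of them tested. In M5 against MNC, 3 of the 15 were lower and none higher, where 2.89% of all genes tested were called lower and 2.76% higher, with a list median of -0.08 beside 0.03 over all genes. Celf3 fell from 28.0, 26.9 and 29.5 FPKM in MNC to 16.9 ± 2.10 (SD, n = 3) in M5, without overlap (-0.71, SE 0.0984, limma adjusted p = 0.0195). Cpeb2, a relative of Cpeb1 that also binds polyadenylation elements, fell from 91.0, 103 and 102 to 71.0, 72.2 and 78.5 (-0.41, limma adjusted p = 0.0336). Cpeb3 fell from 29.1, 31.9 and 34.8 to 22.2, 24.1 and 23.5 (-0.44, limma adjusted p = 0.0375). Averaged over the 15 libraries, Cpeb2 (91.3 FPKM) and Cpeb3 (26.3) were more abundant than Cpeb1 (4.35), and Celf3 (22.1) more than Celf1 (3.75). This order held in every library of every group. The same 3 genes were lower in M5 than in M1, by 0.55 for Celf3 (a difference of -0.55), 0.40 for Cpeb2 (-0.40) and 0.36 for Cpeb3 (-0.36), with limma adjusted p of 0.0234, 0.0171 and 0.0251. Of all genes tested, 3.52% were called lower in M5 than in M1. Between MNC and Con, Cpeb3 (0.83) and Celf3 (0.48) were higher in MNC, as was Celf5 (0.50), and 1 of the 15 was lower. These counts stand beside 8.03% of all genes tested called higher in MNC and 12.4% called lower. Celf3 in M3 replicate 3 was at 15.8 FPKM, beside 22.8 and 23.3 in the other M3 libraries.

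Of 31 enzymes and binding proteins of the poly(A) tail, 3 were higher and none lower in M5 than in MNC. Of all genes tested, 2.76% were called higher and 2.89% lower. The list median was 0.08, beside 0.03 over all genes. Paip1, which links the poly(A)-binding protein to initiation factors, rose from 19.5, 17.7 and 20.7 FPKM in MNC to 31.0, 32.3 and 34.1 in M5 (0.72, SE 0.0789, limma adjusted p = 0.0126). Cnot7, a deadenylase, rose by 0.33 (adjusted p = 0.0347) and Cpsf2, a subunit of the cleavage and polyadenylation factor, by 0.32 (adjusted p just under the threshold). For Cnot7, M5 (40.46 to 42.6 FPKM) overlapped Con (40.32 to 44.55), and MNC (31.49 to 34.04) was below both. Cpsf2 was higher in M5 (13.6 to 13.82) than in Con (11.3 to 12.38). In M5 against M1, 3 were higher (Paip1, 0.59, and Cpsf2, 0.28, among them) and 1 lower (Cpsf4, -0.34). There 3.23% of all genes tested were called higher and 3.52% lower. In MNC against Con, 10 of the 31 were lower and none higher, beside 12.4% of all genes tested called lower and 8.03% higher, with Cpsf4 (-0.51), Cstf2t (-0.50) and Paip1 (-0.47) the largest, at adjusted p of 0.0223 to 0.0263.

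Cap-binding and initiation factors gave 1 call among 11 tested, in M5 against MNC, beside 5.65% of all genes tested. The list median was 0.11, beside 0.03 over all genes. Eif4a2, the helicase that works with the eIF4G scaffold, rose from 70.2, 71.8 and 73.8 FPKM in MNC to 89.0, 91.2 and 92.5 in M5 (0.33, SE 0.0497, limma adjusted p = 0.0233). It was also higher in M5 than in M1 (0.29, adjusted p = 0.0421) and lower in MNC than in Con (-0.30, adjusted p = 0.0173), where Eif4a3 (-0.21) was the other of 2 calls. Of all genes tested, 6.75% were called in M5 against M1 and 20.4% in MNC against Con.

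Among 28 other germ cell RNA-binding proteins tested, 2 were higher and 1 lower in M5 than in MNC. Over all genes tested the shares were 2.76% higher and 2.89% lower. The list median was 0.10, beside 0.03 over all genes. Khdrbs1, the splicing regulator Sam68 that also escorts messages to polysomes in spermatocytes, rose from 10.3, 8.33 and 8.79 FPKM to 14.98, 14.13 and 14.03 (0.61, SE 0.0951, limma adjusted p = 0.0262). Its relative Khdrbs3 rose by 0.34 (adjusted p = 0.0491). For Khdrbs3, M5 (38.01 to 41.87 FPKM) overlapped Con (38.2 to 40.1), and MNC (29.27 to 33.36) was below both. Khdrbs1 in Con (11.06 to 11.56) lay between MNC and M5. Larp1, which binds messages for ribosomal proteins, fell from 107, 110 and 108 to 89.6, 91.8 and 87.6 (-0.27, adjusted p = 0.0341). In M5 against M1, Khdrbs1 was higher (0.59), and Tarbp2 (-0.36), which releases the protamine message for translation, and Larp1 (-0.32) were lower. There 3.23% of all genes tested were called higher and 3.52% lower. MNC against Con had 2 higher (Msi2, 0.71, the largest) and 7 lower, with Rbm46 (-0.41) and Rbm44 (-0.34) the largest of these. Over all genes tested, 8.03% were called higher and 12.4% lower.

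A list of 14 genes was chosen for messages that spermatids store, the kind that Ybx2 packages. Whether each of them is stored was not tested here. In M5 against MNC, 1 was higher and 2 were lower, beside 2.76% of all genes tested called higher and 2.89% lower. The list median was 0.11, beside 0.03 over all genes. Odf1, a protein of the outer dense fibres of the tail, fell from 1265, 1392 and 1330 FPKM to 939, 1029 and 847 (-0.51, limma adjusted p = 0.0337), and Acr, the acrosomal protease acrosin, by 0.27 on the log2 scale (adjusted p = 0.0363). Hmgb2 rose by 0.37 (adjusted p = 0.0247). Its range in M5 (103.52 to 110.22 FPKM) overlapped that in Con (98.36 to 107.89), and MNC (79.64 to 86.59) was below both. Against M1, Tnp2, a transition protein that replaces histones, was lower by 0.71 on the log2 scale (a difference of -0.71, adjusted p = 0.0270). Odf1 (-0.59) and 1 other were lower as well, and Hmgb2 was higher (0.39). Of all genes tested, 3.52% were called lower in M5 than in M1 and 3.23% higher. In MNC against Con, 4 were higher and 1 lower, led by Smcp (1.16), Odf1 (0.96) and Gapdhs (0.79). These stand beside 8.03% of all genes tested called higher and 12.4% lower. The list median was 0.58, beside -0.10 over all genes. The summed elongating spermatid markers, which share genes with this list, were 11105 to 21687 FPKM in Con and 23091 to 29374 in MNC.

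None of these 5 lists held a call in M1 against MNC, M3 against MNC or M5 against M3 with limma. These comparisons had 862, 1369 and 2077 genes of all tested at an unadjusted p under 0.05. Without M3 replicate 3, 1 gene of the poly(A) list was called in M5 against M3. In M5 against MNC, centring each library on its median left 1 call among the paralogs, 1 in the poly(A) list and 0 in the other 3 lists, and removing the GC trend left 2 among the paralogs, 1 each among the RNA-binding proteins and the stored messages, and 0 in the other 2 lists. The counts also rested on single libraries. Without M5 replicate 1 or 2 or MNC replicate 2 or 3, 0 paralogs, 0 RNA-binding proteins and 0 stored messages were called in M5 against MNC, whereas without M5 replicate 3 the counts were 2, 5 and 5. The poly(A) list held 0 to 3 calls and the initiation factors 0 to 2. In M5 against M1, each list held 0 to 1 calls in every such fit except that without M5 replicate 3, which gave 1 to 8. In MNC against Con, all 5 lists held 0 calls without Con replicate 1, and 4 of them 0 without Con replicate 2. Without MNC replicate 2, the poly(A) list held 0 and the RNA-binding proteins 2.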

How the data were processed

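RNA was measured by sequencing in 15 testis libraries, 5 groups of 3, with groups and replicate numbers read from the titles. For M5 replicate 2 the title was followed, since its description points to the column of M5-1. The labels name testis as the tissue, which was followed, although their extraction text mentions sperm. Poly(A) RNA was sequenced and mapped with SOAPaligner, and the authors deposited 1 table of FPKM values for 23510 gene IDs. The methods name RPKM, whereas the columns are named FPKM. Of the IDs, 21143 (89.9%) matched RefSeq genes of GRCm38.p6, from which names, coordinates and promoter sequences were taken. GC content was the median over the GENCODE transcripts with the same Entrez ID. Summed FPKM was 470243 to 513817 per library, and counts were not used here, so the depth is unknown.

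Values were analysed as log2(FPKM + 1), a scale that understates changes of genes with low values. The study tested counts, which these values are not, so the 2 groups compared were fitted with limma 3.58.1 under R 4.3.3 (eBayes with its trend option), with Benjamini-Hochberg adjustment over the 14514 genes that averaged at least 1 FPKM and a threshold of 0.05. The fits were tested on simulated libraries only with changes larger than the differences of the 9 genes, so recovery of small differences was not measured. Ratios were compared by two-sided exact permutation tests (scipy 1.17.1). Counts of members and lists are over all genes tested. Named were all 9 members, the 3 genes most like each (1 of them is not reported here), and up to 3 called genes with the largest difference per list and comparison. The members and lists were chosen with earlier results of these data known. The alternatives were a pseudocount of 0.1, no filter, a mean FPKM of 5 or more, centring on the median, eBayes without trend, a joint fit of all 5 groups, a replicate block, removal of the GC trend, Con as the control, and fits without each library in turn. The promoter windows run from 250 bases before to 50 after each start site, and 12 windows belong to the 9 genes.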

Additional observations from a re-analysis of the deposited data

Results flagged for a closer look

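Dazl differed between the M5 and M1 groups, which were each set against MNC: the difference of M5 from MNC was larger than that of M1 by 0.36 on the log2 scale (0.46 against 0.10, limma adjusted p = 0.0413 for M5 against M1 directly, higher in 3 of 3 M5 libraries). Without the GC trend the difference was 0.16 (limma adjusted p = 0.391). No group held 4 or more libraries, so single libraries were not tested for outlying values.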

How the results depend on the processing

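The number of the 9 genes called in M5 against MNC was 1 (Dazl). It was 0 with no filter, with median centring, without the trend in eBayes, with the GC trend removed and with each single library left out (0 to 0), 2 with a mean FPKM of 5 or more (Dazl and Ybx2, 7 genes tested), 3 with all 5 groups in one fit (Dazl, Ybx2 and Celf1) and 2 with Con as the control (Ybx3 and Celf1). With Con as the control, Dazl was at -0.00723, and M1 had 2 calls (Dazl at -0.368 and Boll at -0.276) and M3 had 1 (Boll at -0.227) in place of 0. In MNC against Con the count of 2 became 1 with no filter, 3 with a mean FPKM of 5 or more or all 5 groups in one fit (Ddx25 in addition), and 0 to 2 with single libraries left out. In M5 against M1 the count of 1 became 0 with no filter, centring, no trend or the GC trend removed, 2 with a mean FPKM of 5 or more or all 5 groups in one fit, and 0 to 1 with single libraries left out. The cause of these changes in count was not tested. A mean FPKM of 5 or more left 9340 genes to test. Of these, 1110 were called in M5 against MNC, 3050 in MNC against Con and 1267 in M5 against M1. In the same order, the joint fit called 2424, 3125 and 1380 of 14514, beside 820, 2967 and 980 in the main fits. With the replicate number as a block, the count was 0 in M5 against MNC, MNC against Con and M5 against M1, and the 5 lists held 0 calls. The deviations of samples of 1 number from their group means had correlations of -0.399 to 0.177. Whether the numbers pair the libraries was not tested.

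Of 771 alternative values of the 9 genes, 729 kept direction and side of the threshold or stayed uncalled (40 of these with a change of sign), 29 lost a call, 9 gained one and 4 reversed. Over all genes, M5 against MNC had 820 calls, 182 with centring, 210 without the GC trend, 14 with the block, 464 with no filter, 2424 with all 5 groups in one fit and 35 to 946 with single libraries left out. The 3 libraries a group and an unknown depth limit small differences, above all for Cpeb1 and Celf1 at under 7 FPKM.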
